A study of Mus musculus with 26 samples.

Results

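Total RNA of the striatum was compared between mice that carry a kinase-dead LRRK2 transgene, GS/DA LRRK2 TG, and non-TG controls. The table of this comparison lists 8576 transcripts, and all 8576 were used. The labels give 5 samples, 3 of non-TG control and 2 of GS/DA LRRK2 TG, out of 26 in the series and 11 of RNA-Seq; the RNA-Seq means hold 4 libraries, 2 per group. Only the mean of each group is deposited, so the change of a transcript is the log2 of the GS/DA LRRK2 TG mean over the control mean. The change is called past the fold at 0.5 or more in size.

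LRRK2 is a large protein with a kinase domain and a GTPase domain, and G2019S is its best known change in familial Parkinson disease. G2019S raises kinase activity, and D1994A takes away the aspartate on which catalysis depends, so a protein with both is present without kinase activity. The question the comparison addresses is which RNA levels differ when this inactive protein is made. The striatum is the main target of the midbrain dopamine neurons, and most of its neurons are spiny projection neurons that use GABA. Both groups are C57BL/6 mice labelled 3 months old, and the tissue is caudate putamen pooled from 3 mice of mixed sex per sample. In the GS/DA LRRK2 TG mice a CaMKII-tTA driver turns on a Tet-LRRK2 transgene in forebrain neurons once doxycycline is withdrawn from the chow. The line has a high copy number. The controls are littermates labelled wild-type. Total RNA was depleted of ribosomal RNA and read without selection for poly(A). To show where the substitutions fall, both codons are printed in capitals within 30 bases of the mouse coding sequence, on the plus strand of NCBIM37 chromosome 15 and in coding exon 41 of 51. The window of D1994A spans 91617416 to 91617445, and that of G2019S spans 91617491 to 91617520. The deposited files do not give the sequence of the transgene.
D1994A: attatttaccgtGACctgaagccccacaat
G2019S: attgcggactacGGGatcgcacagtactgc

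Nearly every deposited mean could be written as a sum of whole reads of 2 libraries, each read weighted by the size factor of its library. This gave the reads of both libraries for 8456 transcripts of the control column (98.6%) and 8477 of the GS/DA LRRK2 TG column (98.8%), and for 8437 in both. After a shift of the means that should break such sums, 0.898% and 0.56% still had exactly 1 such solution. Shifted means with more than 1 solution are not in these shares. The control mean thus holds 2 of the 3 control libraries, and which of them cannot be read from the table. The libraries hold 10533154 and 11120883 reads over the solved transcripts in control, and 12915276 and 10820299 in GS/DA LRRK2 TG. In each group the first of these is rich in reads of GC-rich coding sequences and is called the GC-rich library, and the other the GC-poor library. The log2 difference between the libraries of a group had an SD of 1.44 in control and 1.69 in GS/DA LRRK2 TG over transcripts, and both differences ranked the transcripts almost alike (Spearman rho 0.98). The change between genotypes was far smaller, with an SD of 0.19. Changes are therefore also given within the pair of GC-rich libraries and within the pair of GC-poor libraries, with 10 added to the normalized reads. Reads of a gene in a library are normalized by size factor unless called raw. A transcript with 1 sign and at least 0.25 in both is said to move alike in both pairs. The median of a gene list within a pair covers only members whose reads were solved in both groups.

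Lrrk2 RNA itself did not separate the groups. Its reads were 560.2 and 5233 in the GC-rich and GC-poor libraries of control, and 404 and 5038 in those of GS/DA LRRK2 TG. The GC-poor libraries are high in both groups and the GC-rich libraries are low in both, and the groups overlap. The log2 change was −0.09 by the means, −0.46 in the GC-rich pair and −0.05 in the GC-poor pair. Ribosome footprints on Lrrk2 in the same table went from 1335 to 6017, a log2 change of 2.17. The RNA-Seq libraries alone therefore give no check of the genotype. The methods of the study describe a Western blot of the lysates for the transgene, which was not analysed here. The RNA-Seq change of Lrrk2 was −0.16 in the GS LRRK2 TG table, whose controls carry the same label, and −1.54 in the LRRK2 KO table, which has its own. Whether the same control libraries enter the means of the GS/DA and GS tables was not established, and the tables were normalized separately.

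Markers of spiny projection neurons, the main neurons of the labelled tissue, were abundant. Per kilobase of coding sequence the highest of 14 listed was Ppp1r1b, which codes for DARPP-32, at a control mean of 67208 per kilobase. The dopamine receptor Drd2 stood at 3681 per kilobase and Drd1a at 1876. The Y-linked genes Ddx3y, Uty and Kdm5d, 3 of 9 searched for, were low in the GC-rich libraries of both groups. Uty had 41.5 and 850.1 reads in control and 14.4 and 687 in GS/DA LRRK2 TG, a change of −0.35. Ddx3y changed by −0.43 and Kdm5d by −0.11. All 3 were lower in GS/DA LRRK2 TG by the means, and the pools are of mixed sex. In the GC-rich pair, where their reads were low, Ddx3y was at −1.50, Uty at −1.08 and Kdm5d at −0.96. The GC-poor pair gave −0.36, −0.30 and 0.07 in the same order.

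Most transcripts differed little between GS/DA LRRK2 TG and control. The median log2 change was 0.06, 64.7% of transcripts were above 0 and 97.3% lay within 0.5 of no change. Past the fold, 211 of 8576 were higher in GS/DA LRRK2 TG (2.46%) and 22 lower (0.257%). The genes that rose in both pairs were led by Slc17a7, and those that fell in both pairs by Nr4a1, Egr4 and Rgs2, among transcripts with both means of at least 500. The higher and lower sets were chosen on means of these same libraries, so the choice partly fixes their signs in the pairs. The GC-poor library gave a median of 77.9% of the control mean in the higher set. This was 52.8% in the lower set and 49.8% over all transcripts. Of the 210 higher transcripts with reads in all libraries, 210 were higher in the GC-poor pair, but 158 were lower in the GC-rich pair. Their median change was 0.76 in the GC-poor pair and −0.25 in the GC-rich pair. Of the 22 lower transcripts, 21 were lower in each pair, with medians of −0.58 and −0.72. Alike in both pairs were 149 higher transcripts (1.77% of 8437) and 86 lower (1.02%). Of the 211 higher and 22 lower past the fold, 31 and 16 were among them.

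Over all 8437 transcripts, 62.3% had opposite signs in the pairs. The GC-rich pair alone put 42 transcripts past the fold higher and 351 lower, and the GC-poor pair 651 and 122. The mean over both pairs put 41 higher and 37 lower. Without the GC-rich library of control the counts were 2453 and 996, and without its GC-poor library 2429 and 1161. Without the GC-rich library of GS/DA LRRK2 TG they were 2210 and 2398, and without its GC-poor library 2079 and 2661, since an unpaired library then stands against a pair.

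limma with genotype alone called 0 of 8437 transcripts (0%) at an adjusted p of 0.05, and before adjustment 0 had a p under 0.05. When library pairs entered as a block, limma again called 0. Before adjustment 135 had a p under 0.05 in this blocked fit, 87 of them higher and 48 lower. This is 1.6% of transcripts, beside a nominal 5%. The genotype-alone test sets the change against the gap between GC-rich and GC-poor libraries, so its count of 0 is no sign of equal levels. The blocked test sets the change against the difference between the pairs, in which 62.3% of transcripts had opposite signs. Its low share is therefore no sign of equal levels either. One setting made calls: after quantile normalization and with the block, limma called 14 transcripts, 8 higher and 6 lower. Higher were Slc17a7, Tbr1, Neurod6, Cck and Nr4a2, and lower were Egr2, Egr4, Fosl2 and Nr4a1. The other 5 were Zbtb16, Ildr2 and Sez6l, higher, and Ddit4l and Gh, lower, each named here as chosen after its values were seen. This fit has 1 residual degree of freedom and gave all transcripts the same variance. It also called Gh, which is high in 1 library only, so the spread of a single gene does not enter its p.

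**Figure D1:**
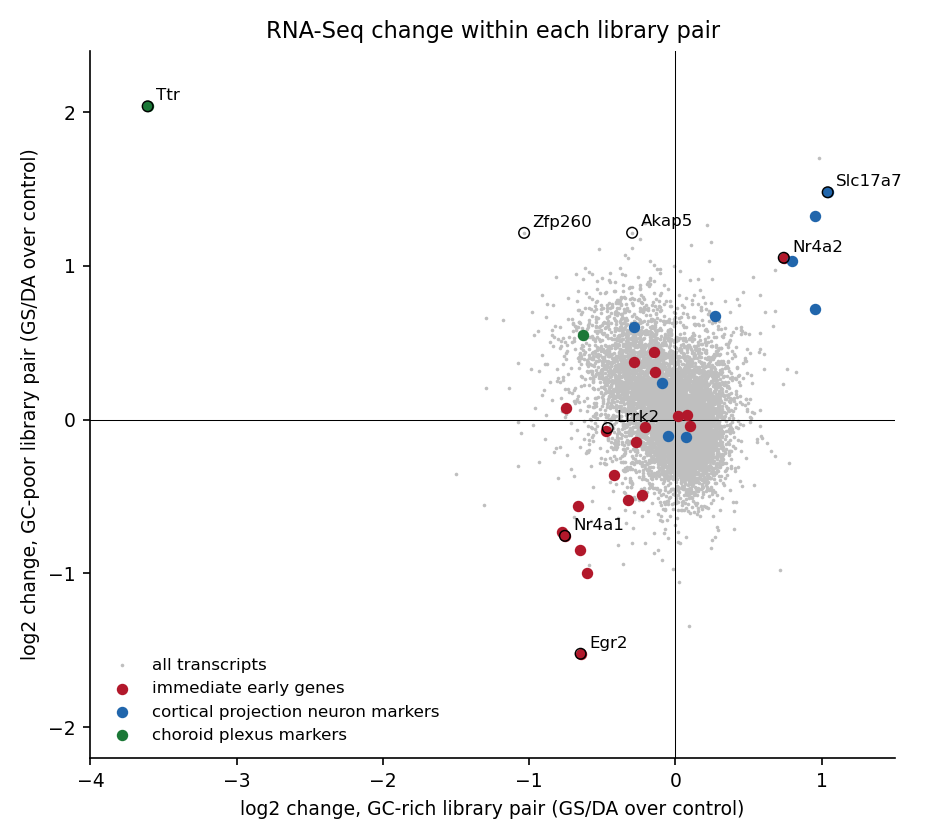
Log2 change (GS/DA LRRK2 TG over control) in the GC-rich pair (x axis) and the GC-poor pair (y axis), 1 point per transcript, with 3 gene lists in colour and named genes ringed. Slc17a7 and Nr4a2 sit up and to the right, Nr4a1 and Egr2 down and to the left, and Ttr, Akap5 and Zfp260 up and to the left; Gh, at −0.13 and −6.36, lies outside the axes.

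Immediate early genes were lower in GS/DA LRRK2 TG striatum. These genes are switched on within minutes by synaptic activity, calcium and cAMP, and many code for transcription factors. Of 20 listed in the table, 15 were lower, beside 35.3% of all transcripts. Past the fold, 6 were lower against 0.257% of all transcripts, and 1, Nr4a2, was higher, against 2.46%. Of the 20, 4 were above 0 in the GC-rich pair and 7 in the GC-poor pair, beside 49.1% and 56.6% of all transcripts. The median change of the list was −0.28, with −0.30 in the GC-rich pair and −0.11 in the GC-poor pair. All transcripts had 0.06, −0.01 and 0.05. Alike in both pairs, 8 were lower and 1 was higher, beside 1.02% and 1.77% of all transcripts.

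Nr4a1, an orphan nuclear receptor, had 5628 and 878 reads in the GC-rich and GC-poor control libraries and 3329 and 516 in those of GS/DA LRRK2 TG. Within each pair GS/DA LRRK2 TG was the lower, although the GC-rich library of GS/DA LRRK2 TG stood above the GC-poor library of control. The log2 change was −0.76 by the means and −0.76 in both pairs. Its relative Nr4a3 fell from 433 to 251 (−0.78). Nr4a2, the third member and a factor that dopamine neurons need, went the other way, with 129 and 196 reads in control and 222 and 418 in GS/DA LRRK2 TG. Both GS/DA LRRK2 TG libraries of Nr4a2 were above both of control, and its change was 0.98. Among the zinc finger factors of the Egr family, Egr1 was the most abundant listed gene per kilobase. Egr1 reads were 13501 and 1103 in control and 8493 and 743 in GS/DA LRRK2 TG. Within each pair Egr1 was lower in GS/DA LRRK2 TG, by −0.67 and −0.56. Egr2 had 399.7 and 398 reads in control against 251 and 132, so both GS/DA LRRK2 TG libraries were below both of control. Its change was −1.06, and with the library pair as a block limma gave −1.09 ± 0.22 (SE, n = 2 libraries per group) with an adjusted p of 0.861 (from 7.67e-05 to 1.00 over the limma settings, the lowest after quantile normalization with the block). Egr4 changed by −0.67 and Egr3 by −0.20, with −0.29 in the GC-rich pair and 0.38 in the GC-poor pair.

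The AP-1 subunits did not all follow. Fosl2 fell from 475 to 286 (−0.73) and Junb from 1419.6 to 1066 (−0.41). Fos changed by −0.33 and Fosb by −0.24, while Jun and Jund stood at 0.06 and 0.02. Arc, which acts at synapses, changed by −0.32 and the phosphatase gene Dusp6 by −0.39. The activity-dependent factor Npas4 was at 0.03, with −0.15 and 0.44 in the pairs. Homer1, a scaffold of glutamate receptors, was at −0.02 by the means and −0.75 in the GC-rich pair. Btg2 and Ier2 are not listed in the table. Footprints on these genes moved the same way, with a median of −0.25 and 16 of 20 lower. Over all transcripts the footprint median was −0.01 and 47.5% were above 0. Nr4a1 footprints changed by −0.97, Egr1 by −0.70 and Nr4a2 by 1.00. Footprints and RNA-Seq come from the same pools. In the GS LRRK2 TG table, against controls of the same label, the RNA-Seq median of the list was −0.32, with Nr4a1 at −0.51, Egr1 at −0.37 and Nr4a2 at −0.72. In the LRRK2 KO table, against separate wild-type controls, the median was −0.30, with Nr4a1 at −0.06 and Egr1 at −0.04. Markers of cortical projection neurons moved in the other direction in the same libraries (median 0.43), and their part in the change of the immediate early genes was not tested.

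Markers of cortical projection neurons were higher in GS/DA LRRK2 TG. The cortex lies against the dorsal striatum, and its neurons use glutamate. Of 18 markers, 9 are listed in the table and 8 were higher, beside 64.7% of all transcripts. Past the fold, 4 were higher, against 2.46% of all transcripts. The median was 0.43, with 0.27 and 0.68 in the GC-rich and GC-poor pair, and 5 were higher alike in both pairs, beside 1.77% of all transcripts. Slc17a7, the vesicular glutamate transporter of cortical neurons, had 1740.2 and 547 reads in the GC-rich and GC-poor control libraries and 3592 and 1544 in those of GS/DA LRRK2 TG. GS/DA LRRK2 TG was higher within each pair, but its GC-poor library stayed below the GC-rich library of control. The change was 1.17, and limma with the library pair as a block gave 1.26 ± 0.19 (SE, n = 2 libraries per group) with an adjusted p of 0.282 (from 7.12e-06 to 1.00 over the limma settings). Tbr1, a transcription factor of deep cortical layers, had 161 and 192 reads in control and 321 and 494 in GS/DA LRRK2 TG. Both GS/DA LRRK2 TG libraries of Tbr1 were above both of control, a change of 1.21 with a blocked limma adjusted p of 0.286 (from 7.12e-06 to 1.00). Neurod6 rose from 119.8 to 244 (1.03) and the peptide gene Cck from 327 to 596 (0.87).

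The remaining listed markers moved less. Mef2c was at 0.43 by the means, with −0.28 in the GC-rich and 0.60 in the GC-poor pair, and Cux2 at 0.37. Kcnv1 was at 0.08. Nrgn, the most abundant of the list, also in spiny neurons, was at 0.06, and Tle4 at −0.08. Summed over the 9 genes, reads were 18699 and 7219 in the control libraries and 21686 and 9600.02 in those of GS/DA LRRK2 TG. Among the defining markers not listed in the table are Bhlhe22, Emx1, Fezf2, Lamp5, Neurod2, Nrn1, Rorb and Slc17a6. In bulk tissue, a change in the number of cells of a type and a change in RNA per cell cannot be told apart, and the amount of cortex in each pool was not tested. Of the 9 genes, 6 were higher in footprints and 3 lower, where 47.5% of all transcripts were higher. The footprint median of the 9 genes was 0.28, with Nrgn at −0.22. Footprints rose on Slc17a7 by 1.30, on Tbr1 by 1.42 and on Cck by 1.09. Against controls of the same label, the GS LRRK2 TG table gave RNA-Seq changes of −0.92 for Slc17a7, −0.39 for Tbr1 and −0.36 for Cck. In the LRRK2 KO table, with its own controls, these were −0.19, −0.80 and −0.66.

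**Figure D2:**
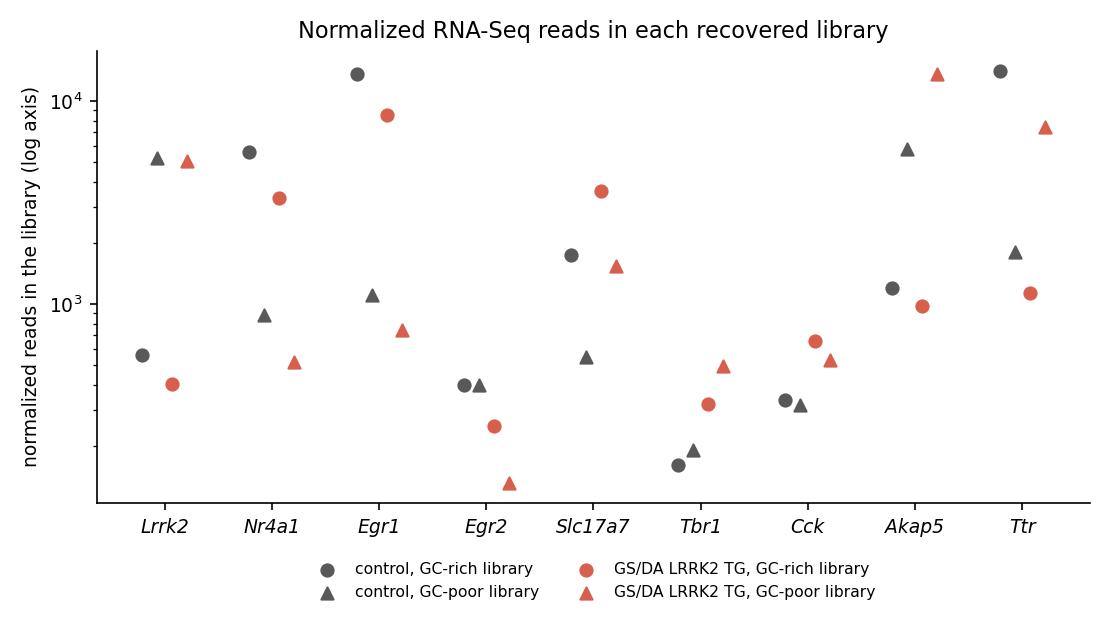
Normalized reads on a log axis in each of the recovered libraries for 9 genes, control in grey and GS/DA LRRK2 TG in red, circles for GC-rich and triangles for GC-poor libraries. Egr2 is lower and Tbr1 and Cck are higher in both GS/DA LRRK2 TG libraries than in both of control, while Lrrk2 and Akap5 follow the library type.

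Of 10 transcripts with the highest change among those with both means of at least 500, only Slc17a7 also rose in the GC-rich pair. Akap5, which anchors protein kinase A at synapses, had 1195 and 5823 reads in the GC-rich and GC-poor control libraries and 971 and 13540.1 in those of GS/DA LRRK2 TG. The GC-poor libraries were high in both groups, that of GS/DA LRRK2 TG the highest, and in the GC-rich pair GS/DA LRRK2 TG was the lower. The change was 1.05 by the means, −0.30 and 1.22 in the pairs, and 0.04 in footprints. The kinesin heavy chain gene Kif5b was at 0.88 by the means, with −0.52 in the GC-rich pair, 1.11 in the GC-poor pair and 0.00 in footprints. The same split was seen for Gpbp1 (0.87; −0.35 and 1.07), the FMRP relative Fxr1 (0.82; −0.38 and 0.99) and Ssb, the La protein (0.82; −0.37 and 0.95). Zfp644 (0.85), Fnip1 (0.76) and 9330159F19Rik (0.76) were also lower in the GC-rich pair. Pde1a, a phosphodiesterase driven by calmodulin, was at 0.94, with −0.01 and 1.00 in the pairs, and its footprints rose by 0.70. Across all 211 higher transcripts the median footprint change was 0.07, and 26 were higher past the fold in footprints, as were 42 of all 8576.

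Zinc finger genes of the Zfp series, a large family of DNA-binding repressors, made up 155 transcripts. Past the fold, 6 were higher and 0 lower, beside 2.46% and 0.257% of all. Their median was 0.09 by the means but −0.11 in the GC-rich and 0.16 in the GC-poor pair. Zfp260 had 93.5 and 295 reads in control and 40.5 and 698 in GS/DA LRRK2 TG. It fell in the GC-rich pair and rose in the GC-poor pair, by −1.03 and 1.22. The other 5 past the fold, Zfp617, Zfp644, Zfp763, Zfp788 and Zfp941, lay between 0.50 and 0.85 by the means, and all were lower in the GC-rich pair.

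Beside the immediate early genes, Rgs2, Rps6ka5, Rgs4, Glce and Coch were among the lowest in both pairs. Rgs2, which shortens signals of Gq-coupled receptors, had 2076 and 3754 reads in control and 1391 and 2369 in GS/DA LRRK2 TG. GS/DA LRRK2 TG was the lower within each pair, and the groups overlap. The change was −0.63, and footprints changed by −0.60. Rgs4, a regulator with high levels in forebrain neurons, fell from 10517 to 7888 (−0.41), with −0.41 and −0.42 in the pairs and −0.38 in footprints. The kinase gene Rps6ka5, whose product MSK1 phosphorylates CREB and histone H3, was at −0.56 in RNA and −0.24 in footprints. Coch was at −0.52. Glce, an enzyme of heparan sulfate synthesis, was at −0.41 with 0.00 in footprints. Glcci1, known as a glucocorticoid-induced transcript, fell from 4430.01 to 2752 (−0.69), with −0.29 and −0.70 in the pairs and −0.05 in footprints. D4Wsu53e was at −0.63, and Rprd1b, at −0.50, was lower in the GC-poor pair only.

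Beside Slc17a7, several genes were among the highest in both pairs. Efhd2, a calcium-binding protein gene, rose from 816 to 1219 (0.58). The adhesion receptor gene Gpr56 was at 0.57 and Olfm1, a secreted protein of neurons, at 0.48. Dynlt1c, a dynein light chain gene, was at 0.52, the heparan sulfatase gene Sulf2 at 0.44 and mKIAA1860 at 0.40. Footprints on these genes were higher as well, from 0.35 for Dynlt1c to 1.30 for Slc17a7.

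Markers of spiny projection neurons were slightly lower. Of 14 listed, 12 were lower, beside 35.3% of all transcripts, and 0 past the fold, beside 0.257%. The median was −0.14 by the means, and −0.11 and −0.17 in the pairs over the 10 with recovered libraries. Penk, the enkephalin precursor of indirect-pathway neurons, fell from 20309 to 14958 (−0.44); its reads per library could not be recovered. Drd1a, the dopamine receptor of direct-pathway neurons, had 2798 and 2235 reads in control and 1964 and 1874 in GS/DA LRRK2 TG. Both GS/DA LRRK2 TG libraries of Drd1a were below both of control, a change of −0.39 with −0.50 in footprints. Drd2 was at −0.01 and the adenosine receptor gene Adora2a at −0.07. Pdyn, the dynorphin precursor, was the highest by the means (0.33), at 0.44 in the GC-rich and −0.03 in the GC-poor pair. The summed reads of the markers with recovered libraries were 45314 and 21137 in control and 43230.5 and 19418 in GS/DA LRRK2 TG. The cortical markers were higher in the same libraries, and their part in these changes was not tested.

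Dopamine and cAMP signalling of spiny neurons moved little. Of 21 genes, 17 were lower, beside 35.3% of all transcripts, with a median of −0.09. Akap5 alone was past the fold, higher, beside 2.46% of all transcripts. The cAMP phosphodiesterase genes Pde10a and Pde1b were at −0.23 and −0.19, the adenylyl cyclase gene Adcy5 at −0.09 and Rgs9 at −0.22. Ppp1r1b was at −0.12. Of 14 striatal transcription factors, 9 were lower, beside 35.3% of all transcripts, with a median of −0.10. The median was −0.21 in the GC-rich and 0.03 in the GC-poor pair. Nr4a1, also counted among the immediate early genes, was the only one past the fold, lower, beside 0.257% of all transcripts, and the retinoid receptor genes Rarb and Rxrg were at −0.28 and −0.27. Foxp1 and Foxp2 were at 0.01 and 0.00. Neuropeptide genes spread to both sides: 14 were listed, with Cck highest and Nts, at −0.75, lowest. Nts, the neurotensin gene, had 88.2 and 329 reads in control and 64.9 and 183 in GS/DA LRRK2 TG, lower within each pair. Sst and Npy, peptides of interneurons, were at 0.00 and 0.09. Over 12 interneuron markers the median was 0.07, from Kit (−0.25) to Calb2 (0.37).

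Choroid plexus markers differed between single libraries more than between genotypes. Of 14 markers 2 are listed, Ttr and Clic6. Ttr, the transthyretin gene and the most abundant of the list, had 13982 and 1811 reads in the GC-rich and GC-poor control libraries and 1137 and 7469 in those of GS/DA LRRK2 TG. It was high in the GC-rich library of control and in the GC-poor library of GS/DA LRRK2 TG, and low in the others. The change was −0.88 by the means but −3.61 in the GC-rich and 2.04 in the GC-poor pair. Clic6 moved the same way at a lower level, by −0.63 and 0.55. The summed reads of both were 14533 and 2204 in control and 1489 and 8049.9 in GS/DA LRRK2 TG. Aqp1, Calml4, F5, Folr1, Kcne2, Kcnj13, Kl, Otx2, Prlr, Slc4a5, Sostdc1 and Tmem72 are not listed, and the part of choroid plexus tissue was not tested. Gh, the growth hormone gene, chosen after its values were seen, had 38 raw reads in the GC-rich and 1106 in the GC-poor library of control and 40 and 3 in those of GS/DA LRRK2 TG. The GC-poor control library alone was high, and the change of −4.83 is the lowest in the table. Globins of blood, 3 listed, were at −0.22 by the means; Hbb-b1 was at 0.03 in the GC-rich and −1.06 in the GC-poor pair.

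By the means, glial markers changed less than cortical ones, and their counts above 0 stand beside 64.7% of all transcripts. Of 19 oligodendrocyte markers 11 were higher, with a median of 0.04, and Mbp, the most abundant, was at 0.05. The extremes were Opalin at −0.43 and Ermn at 0.48, the latter at −0.88 in the GC-rich and 0.67 in the GC-poor pair. All 18 astrocyte markers were listed and 16 were higher, with a median of 0.11. Over the 15 with recovered libraries it was 0.11 in the GC-rich and −0.02 in the GC-poor pair. The glutamate transporter gene Slc1a2 was highest (0.40) and S100b lowest (−0.21). Of 11 microglia markers 10 were higher, with a median of 0.14. It was −0.01 in the GC-poor pair and 0.25 in the GC-rich pair, where cortical markers had 0.27. None of these 3 lists had a member past the fold by the means, beside 2.46% higher and 0.257% lower of all transcripts. Endothelial and mural cells had 2 markers, Slc2a1 (0.24) and Vtn (0.23), and meninges 1, Ptgds (0.04).

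Channel and receptor genes showed small median changes, and GABA-A receptor subunits split between the pairs. Of 29 potassium channel subunits 3 were higher past the fold and 0 lower, beside 2.46% and 0.257% of all transcripts. Their median was 0.11, with 0.00 in the GC-rich and 0.16 in the GC-poor pair. Kcnj3, which codes for a G-protein gated channel, rose from 125 to 198 (0.66), with 0.07 and 0.79 in the pairs. Kcnc2 was at 0.57, and Kcnh7, at 0.56, was −0.67 in the GC-rich pair. For 11 GABA-A receptor subunits the median was 0.05 by the means, and every listed subunit was lower in the GC-rich pair (median −0.39), while 8 were higher in the GC-poor pair (median 0.18). Gabrg3 was lower in both, by −0.43 and −0.46. Of all transcripts, 49.1% were above 0 in the GC-rich pair and 56.6% in the GC-poor pair. The GABA-A receptor subunits had a median coding GC content of 45.7%. All transcripts with a GC content from 44.7% to 47.2% had medians of −0.23 in the GC-rich and 0.21 in the GC-poor pair. The part of GC content in the split of the subunits was not tested. The ionotropic glutamate receptor subunits, 9 listed, had a median of 0.13 by the means, from Grik2 (−0.14) to Gria3 (0.22). It was −0.08 in the GC-rich and 0.01 in the GC-poor pair. Calcium channel subunits, 14 listed, had a median of 0.06, with 0.05 and −0.01 in the pairs. Their most abundant member Cacna2d3 was at −0.28 in both pairs. Genes of synaptic vesicles and release, 24 listed, had a median of 0.12, with 0.03 and 0.15 in the pairs. They ran from Syt2 (−0.48) to the active zone gene Pclo (0.49).

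Ribosomal protein genes were slightly lower by the means and moved oppositely in the pairs. Of 43 genes of the large subunit 37 were lower, with a median of −0.08, and of 33 of the small subunit 23, with a median of −0.05. Of all transcripts 35.3% were lower. Over the 34 and 28 genes with recovered libraries, the medians were 0.10 and 0.13 in the GC-rich pair, and −0.26 and −0.26 in the GC-poor pair. Footprint medians over all 43 and 33 genes were lower, at −0.16 and −0.13, beside −0.01 for all transcripts. Rpl39 (−0.24) and Rps7 (−0.22) were the lowest. The highest was a transcript of Rps4x, at 0.47 by the means, with 0.65 and −0.20 in the pairs; the more abundant transcript of Rps4x was at −0.12. The respiratory chain had the same split: 35 complex I subunits had a median of −0.09, with 0.06 and −0.28 in the pairs. For 25 ATP synthase and cytochrome oxidase subunits these were −0.04, 0.11 and −0.26, in the pairs over the 22 with recovered libraries. Proteasome subunits, 26 listed, had a median of −0.05. Translation factors, 40 listed, had a median of 0.04. Eif2s2, a subunit of initiation factor eIF2, was at 0.67 by the means, −0.25 in the GC-rich pair and 0.04 in footprints. The cap-binding factor gene Eif4e was lower in both pairs, by −0.30 and −0.32, with −0.05 in footprints.

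Genes of the integrated stress response and of chaperones of the endoplasmic reticulum, 23 listed, had a median of 0.06. Atf4, the transcription factor at the centre of that response, had 2649 and 3322 reads in control and 1888 and 2727 in GS/DA LRRK2 TG. It was lower within each pair, by −0.49 and −0.28, and its footprints changed by −0.31. Hsp90b1, a chaperone gene, was highest by the means (0.64) but −0.31 in the GC-rich pair and 0.04 in footprints. Atf3, Chac1, Ddit3, Ppp1r15a and Trib3, which the response induces, are not listed in the table.

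Genes tied to LRRK2 function changed little as groups. Of 10 Rab GTPases that LRRK2 phosphorylates 5 were higher and 5 lower, with a median of 0.00; 0 were past the fold, beside 2.46% higher and 0.257% lower of all transcripts. Rab3b, a GTPase of secretory vesicles, had 1747 and 417 reads in control and 2225 and 532 in GS/DA LRRK2 TG. It was higher within each pair, by 0.35 and 0.34. Rab8a was at −0.23, Rab10 at 0.14 and Rab12 at −0.12. Of 14 Parkinson disease genes 11 were higher, beside 64.7% of all transcripts, 0 past the fold, beside 2.46% and 0.257%, with a median of 0.15 but 0.01 and 0.04 in the pairs. Pink1, a kinase of damaged mitochondria, was at 0.01, and the lysosomal ATPase gene Atp13a2 at 0.21. Dnajc13 was highest (0.47), with −0.49 in the GC-rich and 0.64 in the GC-poor pair. Lysosomal genes, 38 listed, had a median of 0.06, from Ctsz (−0.17) to Arsa (0.35).

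**Figure D3:**
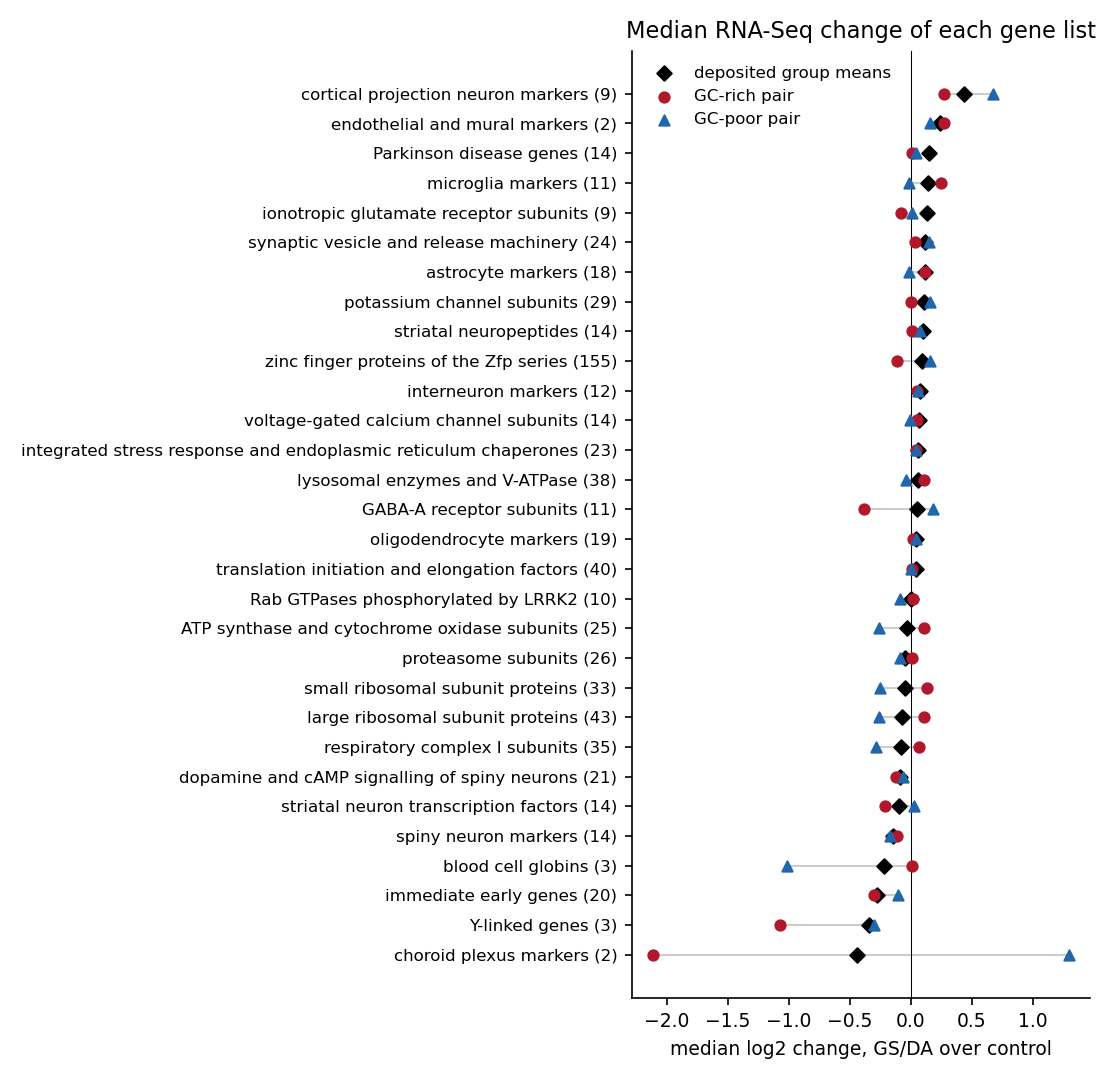
Median log2 change of each gene list by the deposited means (diamonds), in the GC-rich pair (circles) and in the GC-poor pair (triangles), with the number of genes in the table in brackets. Cortical projection neuron markers are highest and choroid plexus markers lowest by the means, and choroid plexus markers differ most between the pairs.

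GC content of the coding sequence, known for 8329 transcripts, ordered the changes within pairs. Across transcripts, which are not independent, its Spearman rho with the change was −0.05 by the means, 0.63 in the GC-rich pair and −0.33 in the GC-poor pair. The lowest of 10 equal groups by GC content, such as Ssb, Kif5b and Zfp644, had a median change of 0.19, with −0.33 and 0.32 in the pairs and −0.05 in footprints. It held 96 of the 211 transcripts higher past the fold. In the highest of the 10, the median was 0.08 by the means and 0.12 and −0.04 in the pairs. Coding length had a rho of 0.30, folding energy of the 5′UTR −0.15 and the control mean −0.15. All 3 turned sign in the GC-rich pair, to −0.13, 0.08 and 0.04, and were 0.35, −0.19 and −0.16 in the GC-poor pair. The RNA-Seq change had a rho of 0.43 with the footprint change of the same pools, and the mean over both pairs 0.50. With the RNA-Seq change of the LRRK2 KO table, over 8535 transcripts and separate controls, rho was −0.05. No autosome stood apart: medians ran from 0.04 on chromosome 12 to 0.07 on chromosome 1, with 0.07 on X.

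**Figure D4:**
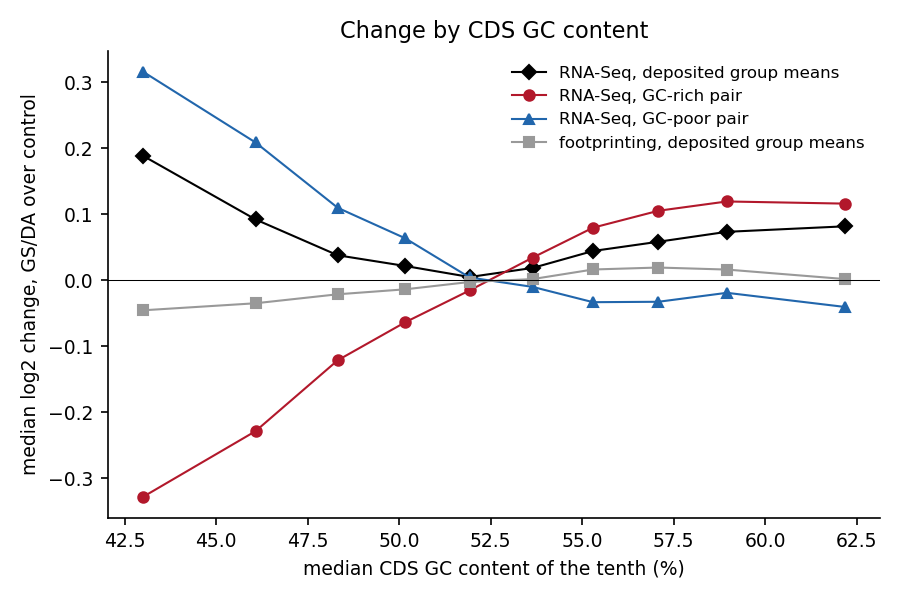
Median log2 change of 10 equal groups of transcripts by GC content of the coding sequence, for RNA-Seq by the deposited means, in the GC-rich pair and in the GC-poor pair, and for footprinting. The GC-rich pair rises from −0.33 to 0.12 and the GC-poor pair falls from 0.32 to −0.04 with GC content, and footprinting stays between −0.05 and 0.02.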

How the data were processed

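RNA-Seq and ribosome footprinting were done on the same striatal pools. The authors called bases with CASAVA 1.8, aligned reads with TopHat2 2.0.11 and Bowtie2 2.2.2 and normalized with DESeq 1.20; the deposited signal is the mean normalized signal of each group, and the deposited table adds the 5′UTR folding energy. Its columns of translation efficiency, differential translation efficiency and z-score were not used. Sequence reads were not analysed here. Whole reads per library were solved from the 2 RNA-Seq columns (Python 3.11.15, NumPy 2.4.6, pandas 2.3.3). This step was tested on simulated data, where size factors in a ratio close to small whole numbers could not be solved, and such columns are refused; for the deposited columns a narrower basis of steps solved only 54.1% and 57% of means, so under the steps found neither library always exceeds the other. limma 3.58.1 (R 4.3.3) was run on log2 of normalized reads plus 10, with Benjamini-Hochberg adjustment over 8437 transcripts, with genotype alone and with library pairs as a block. GC trends were removed with lowess (statsmodels 0.14.6, span 0.3). Coding GC content and length came from GENCODE M1.

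Named, with a few left out, are Lrrk2, the Y-linked genes, the 10 highest and 10 lowest changes with both means at least 500, the 8 highest and 8 lowest in both pairs at that level, and in each list the most abundant, highest and lowest gene and those past the fold; other list members serve as examples. Symbols altered to a date were not named. Members and lists were chosen with earlier results of these data known. Figures were drawn with matplotlib 3.10.9.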

Additional observations from a re-analysis of the deposited data

Results flagged for a closer look

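Footprints on Lrrk2, which no RNA-Seq comparison uses, were above the control level in the same table: 1335 in non-TG control and 6017 in GS/DA LRRK2 TG, a log2 change of 2.17, against −0.09 in RNA-Seq. The difference between the assays was not tested.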

How the results depend on the processing

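No paired analysis was possible because the columns carry no replicate number, other than the fit with library pairs, made by GC content, as a block. Beside the 211 higher and 22 lower transcripts past the fold, the GC-rich pair alone gave 42 and 351 and the GC-poor pair 651 and 122, with an SD of the change of 0.24 and 0.30 beside 0.19. The mean of log2 over recovered libraries gave 41 and 37. Leaving out 1 library gave 2079 to 2453 higher, 996 to 2661 lower and an SD of 0.76 to 0.93. Taking off the table median gave 134 higher. Means of at least 2 times the minimum of the authors left 14 lower, and of 4 times that minimum 91 and 9, from fewer transcripts. A fold of 0.25 gave 1216 and 222, and a fold of 1 gave 5 and 2. The counts stayed within 1.5 times with a pseudocount of 10, 1 transcript per symbol and the GC trend removed.

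For the 149 higher and 86 lower alike in both pairs, all alternatives were chosen after seeing the data. Means of at least 4 times the minimum left 50 and 46, and 0.5 in both pairs left 14 and 11. limma called 0 under each alternative except quantile normalization with the library-pair block, which called 14 (8 higher, 6 lower) with 1 residual degree of freedom; the cause was not tested. Left-out libraries leave a lone library assumed to vary like the other group.

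Of list medians of at least 0.1 in size, the sign turned for these. In the GC-rich pair: ionotropic glutamate receptor subunits −0.085, blood cell globins 0.0057. In the GC-poor pair: astrocyte markers −0.018, microglia markers −0.013, choroid plexus markers 1.30. With the mean over libraries: ionotropic glutamate receptor subunits −0.038. Of named genes past the fold, the sign turned in the GC-rich pair for these: 9330159F19Rik −0.11, Akap5 −0.30, Eif2s2 −0.25, Fnip1 −0.24, Fxr1 −0.38, Gpbp1 −0.35, Hsp90b1 −0.31, Kcnh7 −0.67, Kif5b −0.52, Pde1a −0.0066, Ssb −0.37, Zfp260 −1.03, Zfp617 −0.0062, Zfp644 −0.45, Zfp763 −0.67, Zfp788 −0.29, Zfp941 −0.25. In the GC-poor pair: Ttr 2.04. With the mean over libraries: Kcnh7 −0.033. The cause was not tested. Of the other 179 values of lists, 22 also turned sign, from medians under 0.1 in size, among them both ribosomal lists and GABA-A receptor subunits; of the other 652 values of genes, 41 did, from changes under the fold, such as Dnajc13 and Ermn in the GC-rich pair.

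Limits: each group gives 2 libraries that differ from each other more than the groups do, pools mix sexes, and transcripts that the authors discarded for low read counts are not listed. The minimum of the authors is a number of reads, and listed control means go down to 85.9. Reads per library are missing for some of the most abundant transcripts, such as Penk and Ppp1r1b, and the cause was not tested.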
